A study of Mus musculus with 6 samples.

Results

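The antioxidant genes of the glutathione, thioredoxin and NRF2 systems were taken from the deposited count table by their symbols. The selection covered the glutathione transferase (Gst), glutathione peroxidase (Gpx), peroxiredoxin (Prdx), thioredoxin (Txn) and superoxide dismutase (Sod) families, together with Cat, Nqo1, the heme oxygenases, the enzymes that make and recycle glutathione, Srxn1, the NRF2 family and Keap1. It held 72 of the 52550 mouse genes in the table, after genes that the table names or describes as pseudogenes were left out. Prdx2-rs3, which the table does not mark so, is a processed pseudogene in the GENCODE annotation and was kept among the 72. The libraries came from male FLExDUX4 mice (n = 3) and their wild-type (WT) littermates (n = 3). FLExDUX4 mice carry an inverted human DUX4 transgene in the Rosa26 locus on 1 allele (hemizygous) and were not crossed to a Cre line, so that only leaky, low-level DUX4 transcription is known from this model, which is used for facioscapulohumeral muscular dystrophy. The level of the transgene itself was not analysed here. The sample labels give quadriceps muscle at 13 weeks of age, whereas the methods of the study describe triceps at 2 months.

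Libraries were made with QuantSeq, which primes from the poly(A) tail and reads the 3′ end of each transcript. A count therefore stands for a transcript end and is not divided by transcript length. The usable columns were the counts summed over the 3 mice of each genotype, 13110125 on genes for FLExDUX4 and 18367364 for WT. The spread between mice is not known from these totals, so no test was made and 1 mouse could decide any of the ratios below. Levels are given as CPM, counts relative to the size of each library after TMM scaling. Differences are log2 ratios of FLExDUX4 to WT, each with a 95% Clopper-Pearson counting interval that covers counting error only. Sequencing reads without molecular identifiers are not independent molecules, so the intervals are lower limits on the error. Muscle fiber markers (Ckm, Acta1, Mb, Tnnt3 and Myh4) were at 94375 CPM in FLExDUX4 and 94298 CPM in WT, and the liver markers Alb, Apoa1 and Ttr held 3 and 4 counts in all. In whole muscle, fewer cells of a type and less RNA per cell cannot be told apart.

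Cells remove superoxide and peroxides in linked steps. Superoxide dismutases turn superoxide into hydrogen peroxide, which catalase, glutathione peroxidases and peroxiredoxins reduce to water. Glutathione and thioredoxin supply the electrons and are recycled by their reductases at the expense of NADPH, and glutathione transferases couple glutathione to electrophiles. NRF2, the product of Nfe2l2, switches on many of these genes from antioxidant response elements, and KEAP1 holds it back by directing it to degradation. Contracting muscle produces oxidants continuously, and mitochondria-rich fibers carry a large antioxidant capacity.

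Relative to the bulk of genes, the antioxidant genes as a group lay close to equality between the genotypes. Of the 72 genes, 56 passed the filter on low counts (edgeR filterByExpr), and their median log2 ratio was 0.01, against -0.003 over all 13396 genes that passed. A gene was called where the ratio lay past 1.5-fold and its counting interval excluded 0. By this rule 8 of the 56 genes were called, 5 higher and 3 lower in FLExDUX4. Scaled to spike-in RNAs instead, 2 were called higher and 9 lower, where 5.26% and 20.1% of all genes were. With TMM, over all genes that passed the filter, 20.1% were called, 9.89% higher and 10.2% lower, so the share of antioxidant genes was not above the background. The called genes were Gpx8, Gss, Gstt3, Nqo1 and Prdx4, which were higher, and Gpx7, Gsta4 and Txndc12, which were lower. All 8 had fewer than 1000 counts over both genotypes, the range in which 24.9% of all genes were called.

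The abundant members lay close to equality. Of 20 antioxidant genes with at least 1000 counts, none was past 1.5-fold, against 1.25% of the 2727 genes of that depth. Their log2 ratios ran from -0.10 for Prdx6 to 0.26 for Keap1, with a median size of 0.06, against 0.11 over all genes of that depth. The counting interval excluded 0 for 5 of the 20, namely Keap1, Nfe2l1, Nfe2l2, Prdx1 and Gstm1, all higher in FLExDUX4, while 49% of all genes of that depth had such an interval and 24.2% had it above 0. Of the 36 genes with fewer counts, 9 had an interval above 0, against 19.5% of all genes in that range. Across all 56 genes the interval excluded 0 for 14 that were higher and 8 that were lower, where the background was 20.5% and 20.6%, or 41.1% in either direction. With spike-in scaling it excluded 0 for 3 that were higher and 33 that were lower, against 7.59% and 47.1% of all genes. As a whole, the 72 genes summed to 39359 counts in FLExDUX4 and 54957 in WT, which is 3033 and 2961 CPM (log2 ratio 0.03, counting interval 0.02 to 0.05).

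**Figure D1:**
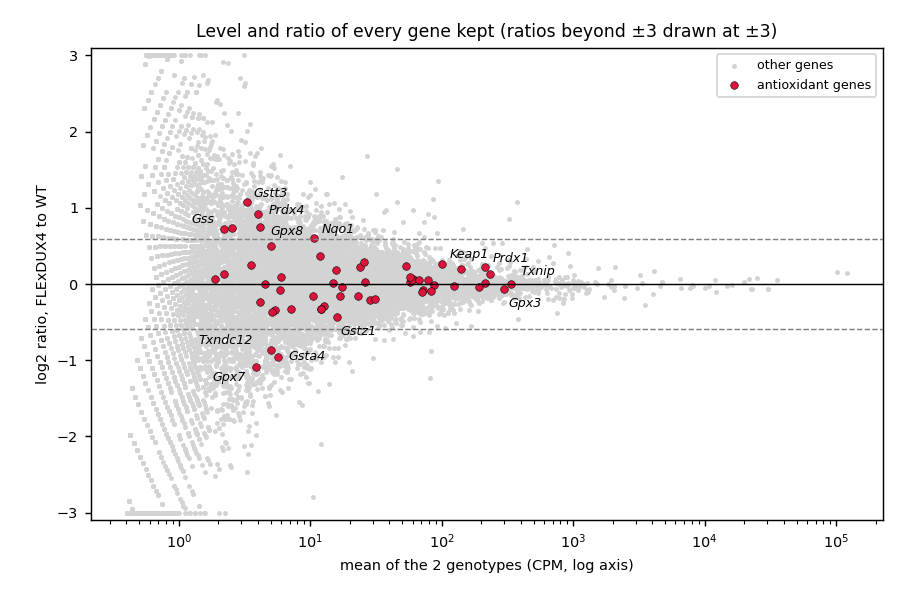
Log2 ratio of FLExDUX4 to WT (vertical axis) against the mean level of the 2 genotypes (horizontal axis, CPM, log scale) for the 13396 genes kept, with the 56 antioxidant genes in red and the 1.5-fold limits dashed. The 20 antioxidant genes with at least 1000 counts lie between -0.10 and 0.26, and the 8 called genes are all among those with fewer counts.

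Scaling to the added ERCC and SIRV spike-in RNAs, in place of TMM, lowered every ratio by about 0.28 and moved the median of all genes to -0.28. Under that scaling 9 of the 56 genes had a ratio above 0, a share set against 25.1% of all genes, in place of 30 of 56 under TMM (49.7% of all genes). Ratios between 0 and 0.27 thus turned to below 0 under spike-in scaling, and the values below are relative to the bulk of genes.

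The 3 regulators of the NRF2 axis that passed the filter each had a ratio above 0, as 49.7% of all genes did, and a counting interval above 0, as 24.2% of genes with at least 1000 counts did. Nfe2l1, which encodes the NRF2 relative that controls proteasome genes, was the most abundant of them, at 244 CPM in FLExDUX4 and 223 CPM in WT (log2 ratio 0.13, counting interval 0.06 to 0.20). Nfe2l2 (GRCm38 chromosome 2, 75675513 to 75704641, minus strand) had 751 and 914 counts, or 57.9 and 49.2 CPM. Keap1 (chromosome 9, 21229730 to 21239361, minus strand) was at 110.4 and 91.9 CPM, with 1433 and 1706 counts (log2 ratio 0.26, counting interval 0.16 to 0.37). The sensor and the factor it restrains were thus shifted by a like amount, the ratio of Nfe2l2 being 0.23. With spike-in scaling all 3 turned to below 0, at -0.01 for Keap1, -0.04 for Nfe2l2 and -0.15 for Nfe2l1. Nfe2l3 had 1 and 3 counts.

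The letters TGACNNNGC, the core of the antioxidant response element, were searched on both strands of the promoter windows in RefSeq (GRCm38.p6, 250 bases before to 50 after each start site). Windows were found for 61 of the 72 genes, and 12 of them (19.7%) held the core, against 14% of the 27025 genes with a window. The 5 windows below are examples from 5 roles, with the core in capitals and upstream of the start site: the factor's own gene, a subunit of the glutathione-synthesis ligase, a peroxiredoxin, a thioredoxin reductase and the cytosolic dismutase. Each is written 5′ to 3′ on the strand that carries the core.
Prdx1, chr4:116685450-116685490, minus strand: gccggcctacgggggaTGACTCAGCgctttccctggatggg
Gclm, chr3:122245407-122245447, minus strand: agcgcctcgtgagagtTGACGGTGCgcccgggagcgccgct
Txnrd1, chr10:82859098-82859138, minus strand: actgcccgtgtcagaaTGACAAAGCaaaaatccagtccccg
Sod1, chr16:90220690-90220730, minus strand: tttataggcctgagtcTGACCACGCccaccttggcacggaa
Nfe2l2, chr2:75704879-75704913, minus strand: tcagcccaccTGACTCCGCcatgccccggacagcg
Prdx1 was the only member whose match read TGACTCAGC, the core with its free bases set to TCA, which 0.503% of all genes with a window hold. The Prdx1 match began 133 bases before the start site, that of Gclm 134, that of Txnrd1 92, that of Sod1 56 and that of Nfe2l2 240. The Txnrd1 window belongs to a start site inside the annotated span of the gene. Of the genes kept, the 10 with the core had ratios from -0.33 to 0.23 with a median of 0.10, and none was called. The 37 without it had a median of -0.01 and ranged from -1.09 to 1.08, with 5 called higher and 2 lower, where 20.1% of all genes were called. With spike-in scaling each of the 10 genes with the core had a ratio below 0, where 25.1% of all genes were above it. A match of letters is a description of the window and not evidence of binding. The lack of a match says nothing about sequence outside the window.

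The 3 genes that make glutathione had counting intervals above 0, as 19.5% of all genes under 1000 counts did, and the interval of the gene that regenerates it included 0. Gclc, the catalytic subunit of the rate-limiting ligase, had 173 counts in FLExDUX4 and 191 in WT, or 13.3 and 10.3 CPM (log2 ratio 0.37). Gclm, its modifier subunit, was at 25.9 and 22.1 CPM, with 336 and 411 counts (log2 ratio 0.23, counting interval 0.01 to 0.44). Gss, which completes the tripeptide, had 41 and 35 counts, or 3.16 and 1.89 CPM (log2 ratio 0.74, counting interval 0.06 to 1.44). Gss was called from few counts, and its ratio of 0.46 with spike-in scaling was short of 1.5-fold. Gsr, the reductase that restores oxidized glutathione, had 148 and 258 counts, or 11.4 and 13.9 CPM (log2 ratio -0.28, counting interval -0.59 to 0.01). The summed ratio of the 4 genes was 0.16, and -0.12 with spike-in scaling.

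Among the glutathione peroxidases, the abundant selenoenzymes were nearly equal and the 2 small members of the endoplasmic reticulum went opposite ways. Gpx3, the secreted plasma form, led the family at 294 CPM in FLExDUX4 and 306 CPM in WT (log2 ratio -0.06, counting interval -0.12 to 0.0001). Gpx1, the cytosolic and mitochondrial form, was at 79.9 and 85.1 CPM (log2 ratio -0.09, counting interval -0.20 to 0.02). Gpx4, which reduces lipid peroxides and protects from ferroptosis, was at 15.0 and 14.8 CPM (log2 ratio 0.01, counting interval -0.26 to 0.28). The level of Gpx4 has a limit of its own, because 83.4% of the 50-base words in the last 300 bases of its coding transcripts also occur in the transcript of Gpx4-ps2, and reads that fit both places may not have been counted. Gpx7 (chromosome 4, 108400390 to 108406961, minus strand), an oxidizing enzyme of the endoplasmic reticulum, had 32 counts in FLExDUX4 and 98 in WT, or 2.47 and 5.28 CPM (log2 ratio -1.09, counting interval -1.72 to -0.51). Gpx8, its closest relative in the same compartment, had 67 and 57 counts, or 5.16 and 3.07 CPM (log2 ratio 0.74, counting interval 0.22 to 1.29). With spike-in scaling the ratio of Gpx8 was 0.47, short of 1.5-fold. The order of this pair was inverted between the genotypes: Gpx7 was the higher in WT and Gpx8 in FLExDUX4. Gpx5 had 0 and 4 counts, and Gpx2 and Gpx6 had none.

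Gstm1 and Gstm5, glutathione transferases of the mu class, which lies in a cluster on chromosome 3, were the most abundant of the 22 Gst genes. Gstm1 (107895821 is the start of Gstm5 at the cluster's low end, and Gstm1 spans 108012255 to 108017973 on the minus strand) was at 150.2 CPM in FLExDUX4 and 131 CPM in WT, a log2 ratio of 0.20 that turned to -0.08 with spike-in scaling. Gstm5 was at 61.7 and 58.7 CPM (log2 ratio 0.07, counting interval -0.06 to 0.20), and Gstm2 at 26.2 and 25.8 CPM (log2 ratio 0.02, counting interval -0.18 to 0.23). Both intervals include 0. Gstm4 had 82 and 147 counts (log2 ratio -0.32, counting interval -0.73 to 0.07), Gstm7 had 30 and 39 counts, Gstm6 had 1 and 4, and Gstm3 had none. The rank of the mu genes was therefore the same in both genotypes, from Gstm1 through Gstm5, Gstm2 and Gstm4 to Gstm7. Of the words in the Gstm1 transcript ends, 23% occur in other genes, Gstm3 among them, so reads of this cluster may be shared out unevenly.

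Outside the mu class, transferases went both ways. Gstk1, a mitochondrial and peroxisomal form, was at 28.8 CPM in FLExDUX4 and 33.1 CPM in WT (log2 ratio -0.20, counting interval -0.39 to -0.01). Gsto1, which acts as a thiol transferase, was at 26.4 and 30.6 CPM (log2 ratio -0.21, counting interval -0.41 to -0.02). Gstz1, which also isomerizes maleylacetoacetate in tyrosine breakdown, had 176 and 339 counts (log2 ratio -0.43, counting interval -0.70 to -0.16). None of these 3 reached 1.5-fold. Of the 9 transferases outside the mu class that passed the filter, the interval lay below 0 for 4 and above 0 for 2, where the shares over all genes were 20.6% and 20.5%. Gsta4, the form with activity toward the lipid peroxidation product 4-hydroxynonenal, had the lowest ratio of the transferases that passed the filter, with 50 counts in FLExDUX4 and 139 in WT, or 3.85 and 7.49 CPM (log2 ratio -0.95). It lies on chromosome 9 (78182774 to 78209349, plus strand). The theta genes, neighbors on chromosome 10, did not move together. Gstt3 (75774115 to 75781414, minus strand) had 58 and 39 counts (log2 ratio 1.08, counting interval 0.48 to 1.71), and 21.5% of the words in its transcript ends recur in other genes. Gstt2 had 77 and 78 counts (log2 ratio 0.49, counting interval 0.02 to 0.97). Gstt1, which lies between them, had 62 and 112 counts (log2 ratio -0.33, counting interval -0.81 to 0.12). The counting intervals of Gstt3 and Gstt1 do not overlap. Gstp1 had 50 and 60 counts (log2 ratio 0.25, counting interval -0.32 to 0.82) and Gstp2 had 25 and 34. These pi genes share 76.7% and 83.8% of the words in their transcript ends with each other or with a pseudogene, so their levels are uncertain. Summed over all 22 transferases, the ratio was 0.04 (counting interval -0.02 to 0.09).

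**Figure D2:**
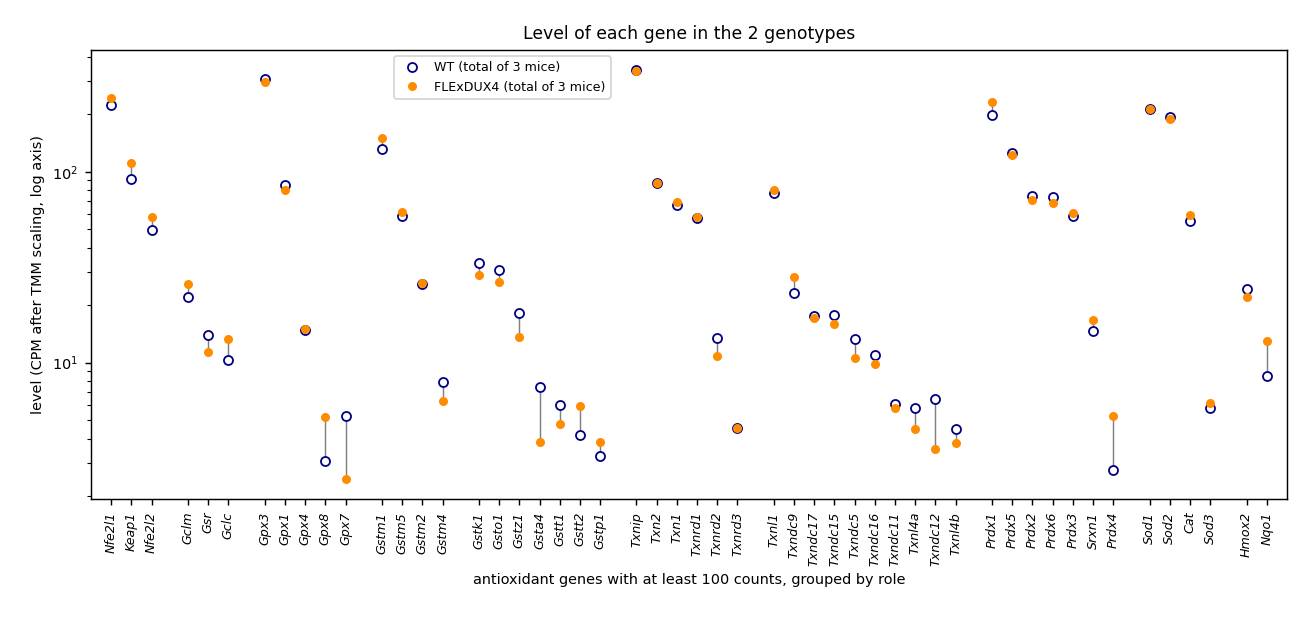
Level of the 51 antioxidant genes with at least 100 counts (vertical axis, CPM, log scale), grouped by role, in WT (open circles) and FLExDUX4 (filled circles), each a total over 3 mice with no error bar. The circles nearly coincide for abundant genes such as Txnip (339 CPM in both) and Sod1, and separate for Gpx7, Gpx8, Gsta4, Txndc12 and Prdx4, which are all under 10 CPM.

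In the thioredoxin system proper none of the 6 genes was called, and 5 of the counting intervals included 0. Of all genes with at least 1000 counts, as Txnip, Txn2, Txn1 and Txnrd1 have, 1.25% were called. Txnip, the thioredoxin inhibitor that also limits glucose uptake, was the most abundant of the 72 genes, with 4396 counts in FLExDUX4 and 6300 in WT, which is 339 CPM in each (log2 ratio -0.003, counting interval -0.06 to 0.05). Txn1, the cytosolic thioredoxin, was at 69.1 and 66.5 CPM (log2 ratio 0.05, counting interval -0.07 to 0.18). Txn2, the mitochondrial thioredoxin, was at 86.9 and 87.8 CPM (log2 ratio -0.01, counting interval -0.12 to 0.10). The counting intervals of these 3 genes all include 0. With spike-in scaling their ratios were -0.28 for Txnip, -0.22 for Txn1 and -0.29 for Txn2. Txnrd1, the cytosolic reductase and a selenoprotein, was at 58.3 and 57.1 CPM (log2 ratio 0.03, counting interval -0.11 to 0.16). Txnrd2, its mitochondrial counterpart, had 140 and 251 counts, or 10.8 and 13.5 CPM (log2 ratio -0.33, counting interval -0.63 to -0.02). Txnrd3, known from testis, had 59 and 84 counts (log2 ratio 0.01, counting interval -0.50 to 0.50). The 6 genes summed to 568 and 569 CPM.

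Of the 10 other thioredoxin-domain and thioredoxin-like genes that passed the filter, 1 was called, against 20.1% of all genes, and the counting interval excluded 0 for 3, against 41.1%. The ratio was above 0 for 2 of the 10, against 49.7% of all genes. Txndc12, an oxidoreductase of the endoplasmic reticulum, had 46 counts in FLExDUX4 and 120 in WT, or 3.55 and 6.47 CPM (log2 ratio -0.86, counting interval -1.39 to -0.37). It lies on chromosome 4 (108834601 to 108862127, plus strand). Txndc5, a protein disulfide isomerase of the same compartment, had 138 and 248 counts (log2 ratio -0.33, counting interval -0.64 to -0.02). Txndc9, which works with a cytosolic chaperonin, had 366 and 430 counts (log2 ratio 0.28, counting interval 0.08 to 0.49). Txndc9 was the only gene of this group whose interval lay above 0, and 19.4% of the words in its transcript ends occur in pseudogenes. Txnl1, associated with the proteasome, was the most abundant of them, at 80.2 and 77.3 CPM (log2 ratio 0.05, counting interval -0.06 to 0.17). The other 6, with 132 to 550 counts each over both genotypes, had intervals that include 0. Txndc17 had 223 and 327 counts (log2 ratio -0.04), Txndc15 had 208 and 331 (log2 ratio -0.15) and Txndc16 had 128 and 204 (log2 ratio -0.16). Txndc11 had 75 and 113 counts (log2 ratio -0.07), and the spliceosome proteins Txnl4a and Txnl4b had 58 and 107 (log2 ratio -0.36) and 49 and 83 (log2 ratio -0.24). All 6 were thus below 0 within counting error. Of the words in the Txnl4a transcript ends, 26.3% recur in other genes. Txndc8, a sperm protein, had 0 counts in FLExDUX4 and 10 in WT. A count of 0 allows up to 3 counts, or 0.231 CPM in FLExDUX4, where WT was at 0.539 CPM. Txndc2, also of sperm, had no counts.

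The peroxiredoxins, which reduce peroxides through a reactive cysteine, were led by Prdx1. Prdx1, the inducible cytosolic form, had 2996 counts in FLExDUX4 and 3667 in WT, or 230.9 and 198 CPM (log2 ratio 0.22, counting interval 0.15 to 0.29). Prdx5, found in mitochondria, peroxisomes and cytosol, had 1596 and 2328 counts (log2 ratio -0.03, counting interval -0.12 to 0.06). Prdx3, restricted to mitochondria, was at 60.7 and 58.5 CPM (log2 ratio 0.05, counting interval -0.08 to 0.19). Prdx1 was the only peroxiredoxin with over 1000 counts whose interval excluded 0, and its ratio was -0.05 with spike-in scaling. Prdx2, abundant in red blood cells, was at 70.7 and 74.8 CPM (log2 ratio -0.08, counting interval -0.20 to 0.04). Prdx6, which also has phospholipase activity, was at 68.4 and 73.6 CPM (log2 ratio -0.10, counting interval -0.23 to 0.02). Prdx4 (chromosome X, 155323918 to 155340754, minus strand), the peroxiredoxin of the endoplasmic reticulum, had 68 and 51 counts, or 5.24 and 2.75 CPM (log2 ratio 0.92, counting interval 0.39 to 1.48). Prdx4 was thus the furthest from equality and the least abundant of the 6. Srxn1, which repairs overoxidized peroxiredoxins and is a known NRF2 target, had 216 and 271 counts (log2 ratio 0.19, counting interval -0.08 to 0.45). Prdx2-rs3 had 0 and 4 counts, and Prdx6b had none. Of the words in the Prdx1 transcript ends, 31.8% also occur in annotated pseudogenes.

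The counting intervals of the superoxide dismutases and catalase all included 0 under TMM scaling, where 41.1% of all genes had an interval that excluded 0, and all 4 ratios were below 0 with spike-in scaling. Sod1, the cytosolic copper-zinc enzyme, was at 214 CPM in FLExDUX4 and 212 CPM in WT (log2 ratio 0.01, counting interval -0.06 to 0.08). Of the words in the Sod1 transcript ends, 18.3% also occur in a pseudogene. Sod2, the mitochondrial manganese enzyme, was at 189 and 193 CPM (log2 ratio -0.03, counting interval -0.11 to 0.04). Cat, the peroxisomal catalase, was at 59.3 and 55.4 CPM (log2 ratio 0.10, counting interval -0.04 to 0.23). Sod3, the extracellular enzyme, had 80 and 107 counts (log2 ratio 0.10, counting interval -0.34 to 0.53). In each genotype the cytosolic and mitochondrial dismutases were both between 189 and 214 CPM, above the extracellular form.

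Hmox2, the constitutive heme oxygenase, had 285 counts in FLExDUX4 and 453 in WT (log2 ratio -0.15, counting interval -0.37 to 0.06). Hmox1, the stress-induced form, had 36 and 31 counts, or 2.77 and 1.67 CPM (log2 ratio 0.72, counting interval -0.002 to 1.47), and was not called because the interval reaches 0. Nqo1 (chromosome 8, 107388225 to 107403206, minus strand), the quinone reductase often used as a readout of NRF2, had 168 and 158 counts, or 12.9 and 8.51 CPM (log2 ratio 0.60, reaching from 0.28 to 0.93 by counting error). Nqo1 lay just past 1.5-fold, and its ratio was 0.57, short of it, when gene totals were used without a TMM factor and 0.33 with spike-in scaling. The constitutive Hmox2 exceeded Hmox1 in both genotypes.

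**Figure D3:**
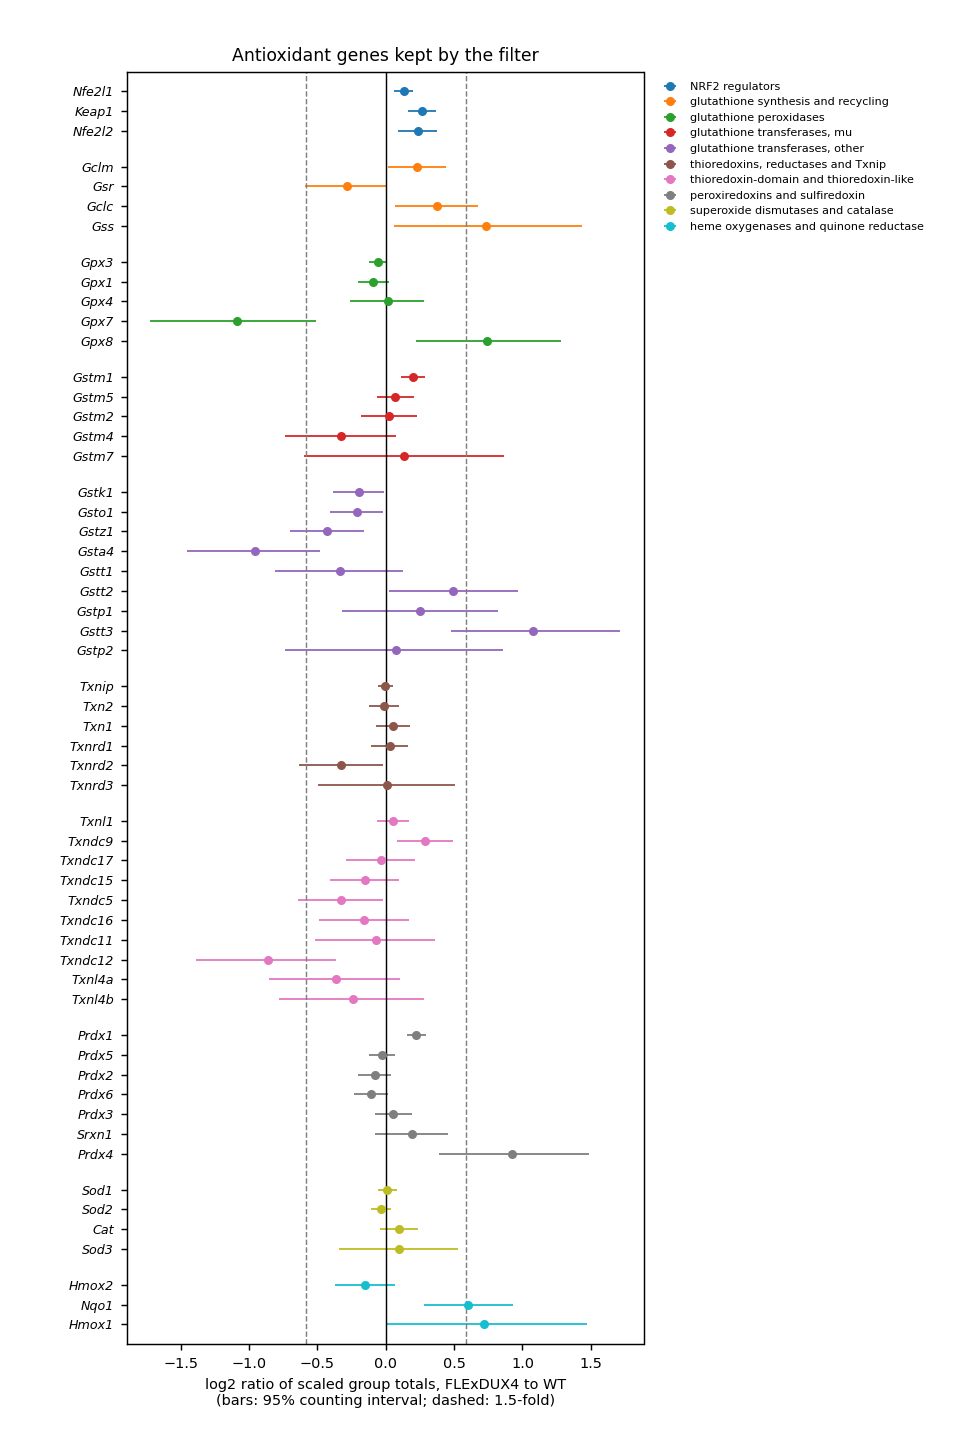
Log2 ratio of FLExDUX4 to WT for the 56 antioxidant genes kept by the filter (horizontal axis), grouped by role and ordered by counts within a role. Bars are 95% counting intervals and dashed lines mark 1.5-fold. The intervals widen from the abundant to the rare genes, and only Gpx8, Gss, Gstt3, Nqo1 and Prdx4 (higher) and Gpx7, Gsta4 and Txndc12 (lower) lie past a dashed line with an interval that excludes 0.

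The remaining 16 genes did not pass the filter, having at most 16 counts over both genotypes. Of these, 9 had no count in either: Gpx2, Gpx6, Gsta1, Gsta2, Gstm3, Gsto2, Gstt4, Prdx6b and Txndc2. No count allows up to 0.231 CPM in FLExDUX4 and 0.162 CPM in WT. The other 7 were Gsta3, with 8 counts in each genotype, Gstp3, with 4 and 0, and Nfe2l3, Gstm6, Gpx5, Prdx2-rs3 and Txndc8.

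Other genes of the NRF2 and glutathione pathways were taken from a list of 51 genes. Of these, 48 passed the filter, with a median log2 ratio of 0.13, or -0.15 with spike-in scaling. The call was made for 5 higher and 2 lower, out of 48, against the background of 9.89% and 10.2% given above. With spike-in scaling these were 4 higher and 6 lower, against 5.26% and 20.1% of all genes. The counting interval lay above 0 for 20 of the 48 and below 0 for 6, where the shares over all genes were 20.5% and 20.6%. These intervals are under TMM scaling. The ratio was above 0 for 29 of the 48 under TMM and for 16 with spike-in scaling, against 49.7% and 25.1% of all genes. The most abundant of the called genes was Chac1, which breaks down glutathione and is a target of the integrated stress response. Chac1 had 1521 counts in FLExDUX4 and 1001 in WT, or 117 and 53.9 CPM (log2 ratio 1.12, counting interval 1.004 to 1.24). Chac2, the constitutive enzyme of the same reaction, had 87 and 66 counts (log2 ratio 0.91, counting interval 0.44 to 1.40). Chac1 and Chac2 were higher while Ggt5, which cleaves extracellular glutathione conjugates, was lower, with 41 and 121 counts (log2 ratio -1.04, counting interval -1.59 to -0.52). Among transcription factors that pair or compete with NRF2, Maff had 61 and 34 counts (log2 ratio 1.34, counting interval 0.73 to 2.01). Bach1, a repressor at the same elements, had 375 and 348 counts (log2 ratio 0.62, counting interval 0.41 to 0.84), and its ratio of 0.35 with spike-in scaling was short of 1.5-fold. Sesn3, a sestrin that links oxidants to mTOR control, had 130 and 309 counts (log2 ratio -0.73, counting interval -1.04 to -0.43). The ferritin light chain gene Ftl1 was also called higher, from 99 and 68 counts, where the heavy chain gene Fth1 had 21480 and 26639. Whether other genes repeat the transcript ends was checked for the 72 genes only and not for this list. The level of Ftl1 is therefore uncertain. Fth1, Ftl1 and Bach1 are genes that the study itself listed from these samples, so their direction is not independent evidence.

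Of the 5 most abundant genes of that list, none reached 1.5-fold, as for nearly all genes of that depth (1.25% called), and 3 had counting intervals above 0, against 24.2%. Fth1, the ferritin heavy chain, was at 1656 CPM in FLExDUX4 and 1435 CPM in WT (log2 ratio 0.21, counting interval 0.18 to 0.23, and -0.07 with spike-in scaling). Park7, a redox-sensitive chaperone, was at 401 and 404 CPM (log2 ratio -0.01, counting interval -0.06 to 0.04). Sqstm1, the autophagy receptor that competes for KEAP1, was at 291 and 257 CPM (log2 ratio 0.18, counting interval 0.12 to 0.24). Cul3, the ubiquitin ligase scaffold that KEAP1 uses, was at 203 and 178 CPM (log2 ratio 0.19, counting interval 0.11 to 0.26). Mgst3, a membrane-bound transferase, was at 174 and 167 CPM (log2 ratio 0.06, counting interval -0.02 to 0.14). Keap1, Cul3, Sqstm1 and Nfe2l2 thus had ratios between 0.18 and 0.26, and all 4 were below 0 with spike-in scaling. Rbx1, the ring subunit of the same ligase, did not share this, with a ratio of -0.06 (counting interval -0.17 to 0.05). Slc7a11, the cystine importer that feeds glutathione synthesis and is a known NRF2 target, had no count in either genotype.

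**Figure D4:**
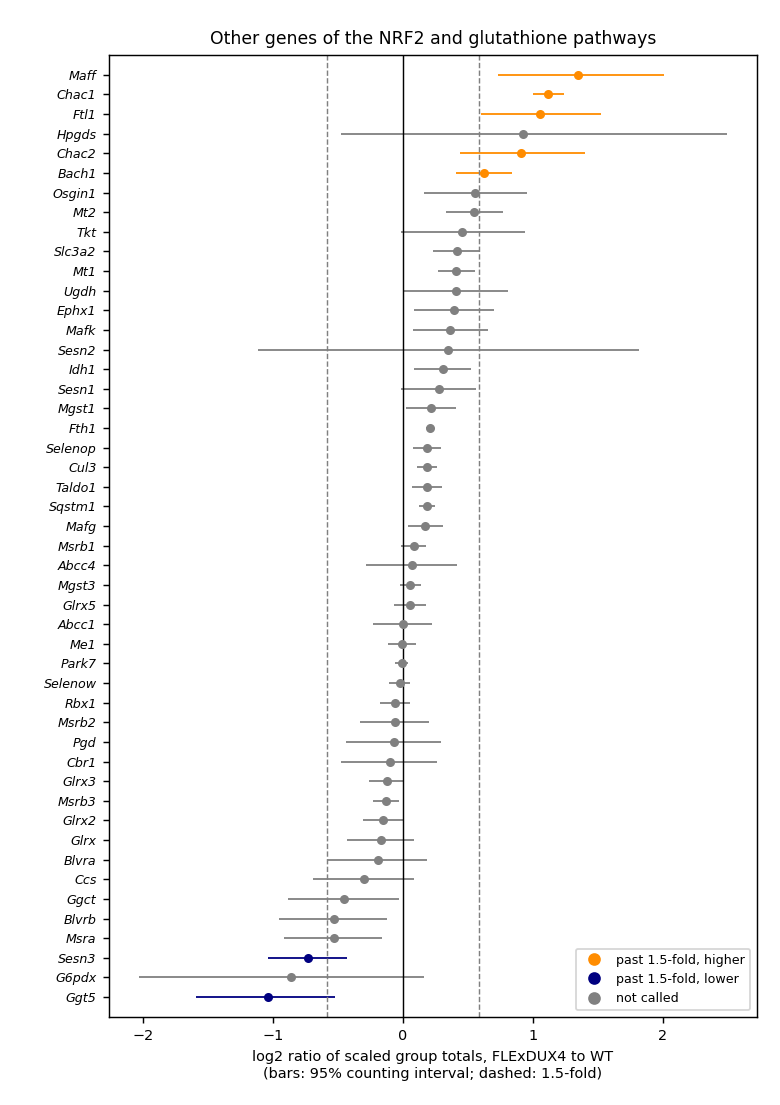
Log2 ratio of FLExDUX4 to WT (horizontal axis) with 95% counting intervals for the 48 other pathway genes kept by the filter, sorted by ratio. Orange and blue mark the genes past 1.5-fold with an interval that excludes 0, of which Chac1, at 1.12, has the narrowest interval.

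Markers of other cells differed between the totals. Red blood cell markers, 5 of 6 of them higher, summed to 1279 CPM in FLExDUX4 and 1020 CPM in WT (log2 ratio 0.33), and Slc4a1 had 0 and 6 counts. Adipocyte markers, 5 of 6 higher, summed to 379 and 297 CPM (log2 ratio 0.35). Fibroblast markers, all 4 higher, summed to 1075 and 958 CPM (log2 ratio 0.17), and endothelial markers, 1 of 4 higher, to 148 and 172 CPM (log2 ratio -0.21). Col1a1 (0.53) and Lum (0.48) had counting intervals above 0, while those of Dcn and Pdgfra included 0. Kdr (-0.56) and Cldn5 (-1.35) had intervals below 0, while those of Pecam1 and Cdh5 included 0. Macrophage and leukocyte markers, 3 of 7 higher, summed to 76.6 and 78.6 CPM (log2 ratio -0.04). Over all genes, 49.7% had a ratio above 0. With spike-in scaling the sums had ratios of 0.05 for red blood cell, 0.07 for adipocyte and -0.11 for fibroblast markers. Those of endothelial markers and of macrophage and leukocyte markers were then -0.49 and -0.31. The myosin heavy chains of fiber types I, IIa, IIx and IIb (Myh7, Myh2, Myh1 and Myh4) had ratios of -0.04, -0.04, -0.19 and -0.07. Prdx2, which red blood cells carry in quantity, had a ratio of -0.08 with a counting interval that includes 0 (-0.20 to 0.04). The part of cell composition in any of the ratios above was not tested.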

How the data were processed

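QuantSeq 3′ libraries of quadriceps muscle (3 FLExDUX4 and 3 WT male mice, per the labels) were processed by the authors with Cutadapt 1.16, STAR 2.5.3a on GRCm38 with ERCC and SIRV sequences, and DESeq2, and featureCounts 1.6.2 is named in the submitters' processing notes. The deposited counts used here are whole-number, unnormalized counts per gene summed by the authors over each genotype. The table also has 6 columns of single mice whose names match no label, and columns of the authors' own comparison (mean, fold change, standard error, Wald statistic, p-values), none of which were used. The planned edgeR test was therefore not run.

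Spike-ins were left out of library totals. Totals were scaled by TMM (edgeR 4.0.16, R 4.3.3) after filterByExpr, and log2 ratios took a pseudocount of 0.5. Intervals are 95% Clopper-Pearson (Python 3.11.15, scipy 1.17.1). The scripts were tested on simulated counts. All 72 genes are accounted for, and those with at least 100 counts were given with their values. Of the other pathway genes, those called and the 5 with most counts were named by rule, and Rbx1, Slc7a11 and the genes with fewer counts were named after their values were seen. Members and lists were chosen with earlier results of these data known. Coordinates are from GENCODE M21 (GRCm38), printed where the start equals the deposited one.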

Additional observations from a re-analysis of the deposited data

How the results depend on the processing

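Every ratio rests on 1 total per genotype, so the spread between mice is not known from the totals used. No paired analysis was possible because no column of a single mouse carries a name found in the labels, and for the same reason DESeq2, edgeR tests, leaving out replicates and the replicate block were not run. RLE, upper quartile, gene totals, leaving the filter out, a minimum of 10 counts in both genotypes, a pseudocount of 1 and the fold without the interval each kept the counts of called antioxidant and pathway genes within 1.5 times, and the median of the antioxidant genes between -0.02 and 0.01. The median of the pathway list, 0.13 in the main setting, was 0.07 without the filter and 0.06 with a minimum of 10 counts. With spike-in totals 2 antioxidant genes were called higher and 9 lower, the interval excluded 0 for 36 (3 higher and 33 lower), and the median was -0.26, while 25.3% of all genes were called, the interval lay below 0 for 47.1% of them, and their median was -0.28. For the pathway list 6 were then called lower, and the median was -0.15. At 2-fold, 2 antioxidant genes were past the threshold (1 higher and 1 lower) and 4 pathway genes (3 higher and 1 lower). At 1.2-fold these were 15 (9 higher and 6 lower) and 18 (13 higher and 5 lower), and the share of all genes was 33.2%, against 11.7% at 2-fold. Of 51 genes with at least 100 counts, spike-in scaling changed the sign of 19, none of them called, gene totals of 5 and upper quartile of 3.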

Other observations

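Grouped by compartment, a grouping made after the values were seen and untested, transcripts of the cytosolic enzymes Sod1, Prdx1, Prdx2, Txn1 and Txnrd1 summed to 643 CPM in FLExDUX4 and 608 CPM in WT (log2 ratio 0.08), and those of their mitochondrial counterparts Sod2, Prdx3, Txn2 and Txnrd2 to 348 and 353 CPM (log2 ratio -0.02). Of the cytosolic sum, Prdx1 made up 230.9 and 198 CPM. Among the groups by compartment, 6 genes of the endoplasmic reticulum (Gpx7, Gpx8, Prdx4, Txndc5, Txndc11 and Txndc12) had the widest spread. Their ratios ran from -1.09 for Gpx7 to 0.92 for Prdx4, although their sum was 32.8 and 37.0 CPM (log2 ratio -0.17, counting interval -0.35 to 0.003). The transferases outside the mu class ranged as widely, from -0.95 to 1.08. The 6 may not be every antioxidant gene of the endoplasmic reticulum. Of the 6, 4 were called, each with at most 166 counts over both genotypes, where 24.9% of all genes with fewer than 1000 counts were called. The group was formed with these calls in view, so that the count is no sign that calls gather in this compartment. The selenoproteins Gpx1, Gpx3, Gpx4, Txnrd1, Txnrd2 and Txnrd3 summed to 462 and 481 CPM (log2 ratio -0.06).

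The metallothioneins Mt1 and Mt2, metal-binding proteins that also scavenge oxidants, were both higher in FLExDUX4 without reaching 1.5-fold. These 2 genes are of the pathway list and were named after their values were seen. Mt1 had 757 counts in FLExDUX4 and 814 in WT (log2 ratio 0.41, counting interval 0.27 to 0.56), and Mt2 had 343 and 335 (log2 ratio 0.55, counting interval 0.33 to 0.77). With spike-in scaling the ratios were 0.14 and 0.27. An interval above 0 was found for 24.2% of genes with at least 1000 counts, as Mt1 has. It was found for 19.5% of those with fewer, as Mt2 has.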
